A study of Homo sapiens with 18 samples.

Results

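The 10 genes described here encode the parts of the inflammasome and the receptor that is best known for switching it on. They were taken by gene symbol: the sensors NLRP3, NLRP1, NLRC4 and AIM2, the adaptor PYCARD, the protease CASP1, the cytokines IL1B and IL18, the pore-forming protein GSDMD and the ATP receptor P2RX7. They are read by 17 of the 47217 probes of the Illumina HumanHT-12 v4 array, and are 10 of 20041 genes with a probe. Of the 17 probes, 12 were detected on at least 3 of 18 arrays and could be tested, so that 8 of the 10 genes were tested among 11130. RNA came from Jurkat, a T-cell leukemia line, and from THP1, a monocytic leukemia line, with 3 arrays in each of 6 groups. The groups were Jurkat cells and THP1 cells given graphene oxide carrying amino groups (GONH2, 50 µg/ml for 24 h), both lines given plain graphene oxide (GO, 50 µg/ml for 24 h), and both lines left untreated as controls. Each cell type is represented by 1 leukemia line, and the labels name no other agent or genetic change. The arrays of a group are labelled as biological replicates, with nothing on separate cultures, and p-values measure the spread between these 3 arrays. In cultures measured as a whole, fewer cells that express a gene and less RNA per cell cannot be told apart.

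The labels were set against marker genes. Neutrophil elastase (ELANE), made by immature myeloid cells, stood at a log2 intensity of 13.63 ± 0.04 on the Jurkat controls and at 14.52 ± 0.26 on the THP1 controls (SD, n = 3 each). CD3D, which belongs to the antigen receptor of T cells, reached 7.86 ± 0.27 on the Jurkat controls, with detection on each of the 3, and was not detected on THP1 controls, whereas its partner chain CD3E was detected in neither line. Every Jurkat control showed 19 of 25 myeloid markers with a probe and every THP1 control 21. For 22 markers of T cells these numbers were 7 and 1. The data therefore go against a pure T-cell identity of the arrays labelled Jurkat, and the line name is used here only as the label. The labels of the treated THP1 arrays were also in doubt. Group means published for monocytes with GO, over 1996 genes, equalled those of the THP1 arrays labelled GONH2 for 100% of the genes (within 0.005 log2) and those of the arrays labelled GO for 0%. The means published for Jurkat cells with GO equalled the Jurkat GO arrays for 100% of 1996 probes. The treated means published for GONH2 equalled no group of the same line, and groups of the other line were not compared. For THP1, 0.512% of 977 probes matched under either label. For Jurkat at most 0.43% of 1163 probes matched any Jurkat group, and 0.258% matched between its control column and the Jurkat controls. The Jurkat GONH2 arrays could therefore not be checked in this way. The monocyte groups are therefore called labelled GO and labelled GONH2, and every comparison of the lines is given with both. Between 15761 and 17809 probes were detected per array, and the lowest correlation within a group was 0.987. The mean levels of the Jurkat controls and of the THP1 controls correlated at 0.977 over the tested probes. The arrays labelled as different lines were thus nearly as alike as single arrays of a group.

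An inflammasome is a protein platform that assembles in the cytosol when a sensor meets a danger or microbial signal. The sensor recruits PYCARD (also called ASC), which gathers pro-caspase-1 so that it cleaves itself. Active caspase-1 cuts the precursors of interleukin-1β and interleukin-18 and frees the pore-forming end of gasdermin D, and the pores release the cytokines and can end in pyroptosis. NLRP3 is usually set off by potassium loss from the cell, which extracellular ATP causes through the P2X7 channel. Monocytes and macrophages are the classic setting, where a first signal raises NLRP3 and IL1B transcripts and a second one triggers assembly. Assembly and cleavage act on proteins, which the arrays do not measure.

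NLRP3 and AIM2 were detected among the sensors, and NLRP1 and NLRC4 were not. A probe counted as detected on an array when its signal exceeded the negative controls at a detection p under 0.01. NLRP3 was detected on every array by all 3 of its probes, and AIM2, a sensor of cytosolic DNA, on 16 of 18 arrays by 1 of its 2 probes. NLRP1, which in human cells senses protease activity and double-stranded RNA, was detected on 0 arrays by both probes, with a lowest detection p of 0.0390. NLRC4, which works with NAIP proteins on bacterial flagellin, was also detected on 0 arrays, with a lowest detection p of 0.0364. These probes set only a bound on the RNA, since a signal at the level of the negative controls does not show absence. At a detection p under 0.05, NLRP1 passed on 1 array and NLRC4 on 2.

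IL1B was the member whose detection separated the lines. Its probe was detected on all 9 arrays labelled Jurkat, but on 0 of 3 THP1 arrays labelled GONH2, 0 of 3 labelled GO and 1 of 3 THP1 controls. PYCARD, IL18, P2RX7 and GSDMD were detected on all 18 arrays by each of their probes. CASP1 was detected on all 18 arrays by 2 of its 3 probes and on none by the third.

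**Figure D1:**
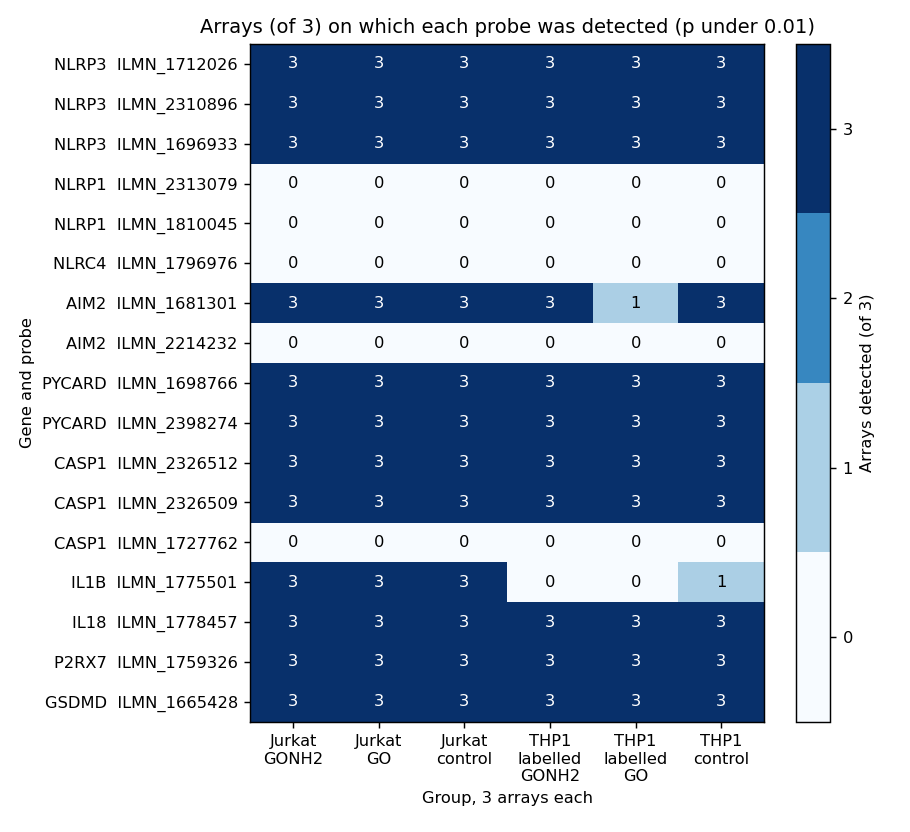
Number of arrays, out of 3 in each group (columns), on which each of the 17 probes (rows) was detected at p under 0.01. NLRP1 and NLRC4 stand at 0 in all 6 groups, and the IL1B row drops to 0, 0 and 1 in the THP1 columns.

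A gene was counted as changed at p under 0.001 together with a Benjamini-Hochberg adjusted p under 0.05 over all 19455 tested probes, by limma's moderated test on the 6 arrays compared. Values are log2 intensities after background correction and quantile normalization, so that 1 unit is a doubling. GO on arrays labelled Jurkat changed 4 of the 8 tested members (NLRP3, IL18 and P2RX7 higher, CASP1 lower), where 27.1% of all tested genes changed. GONH2 on arrays labelled Jurkat changed 1 member, IL1B, where 0.764% of genes changed. On THP1 arrays, 1 member changed under the label GO (P2RX7, higher), where 9.09% of genes changed. Under the label GONH2, 2 members changed (IL18 higher, CASP1 lower), where 21.9% of genes changed.

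The median log2 fold change of the 8 members beside that of all tested genes was 0.11 against -0.02 for Jurkat GONH2 and 0.40 against 0.11 for Jurkat GO. In THP1 it was 0.23 against 0.08 under the label GONH2 and 0.06 against -0.02 under the label GO. The treated and control arrays did not overlap for 3 members with Jurkat GONH2 (27% of all genes), 5 with Jurkat GO (60.7%), 7 with THP1 labelled GONH2 (57.3%) and 6 with THP1 labelled GO (45.8%). All comparisons within a line share its 3 control arrays.

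**Figure D2:**
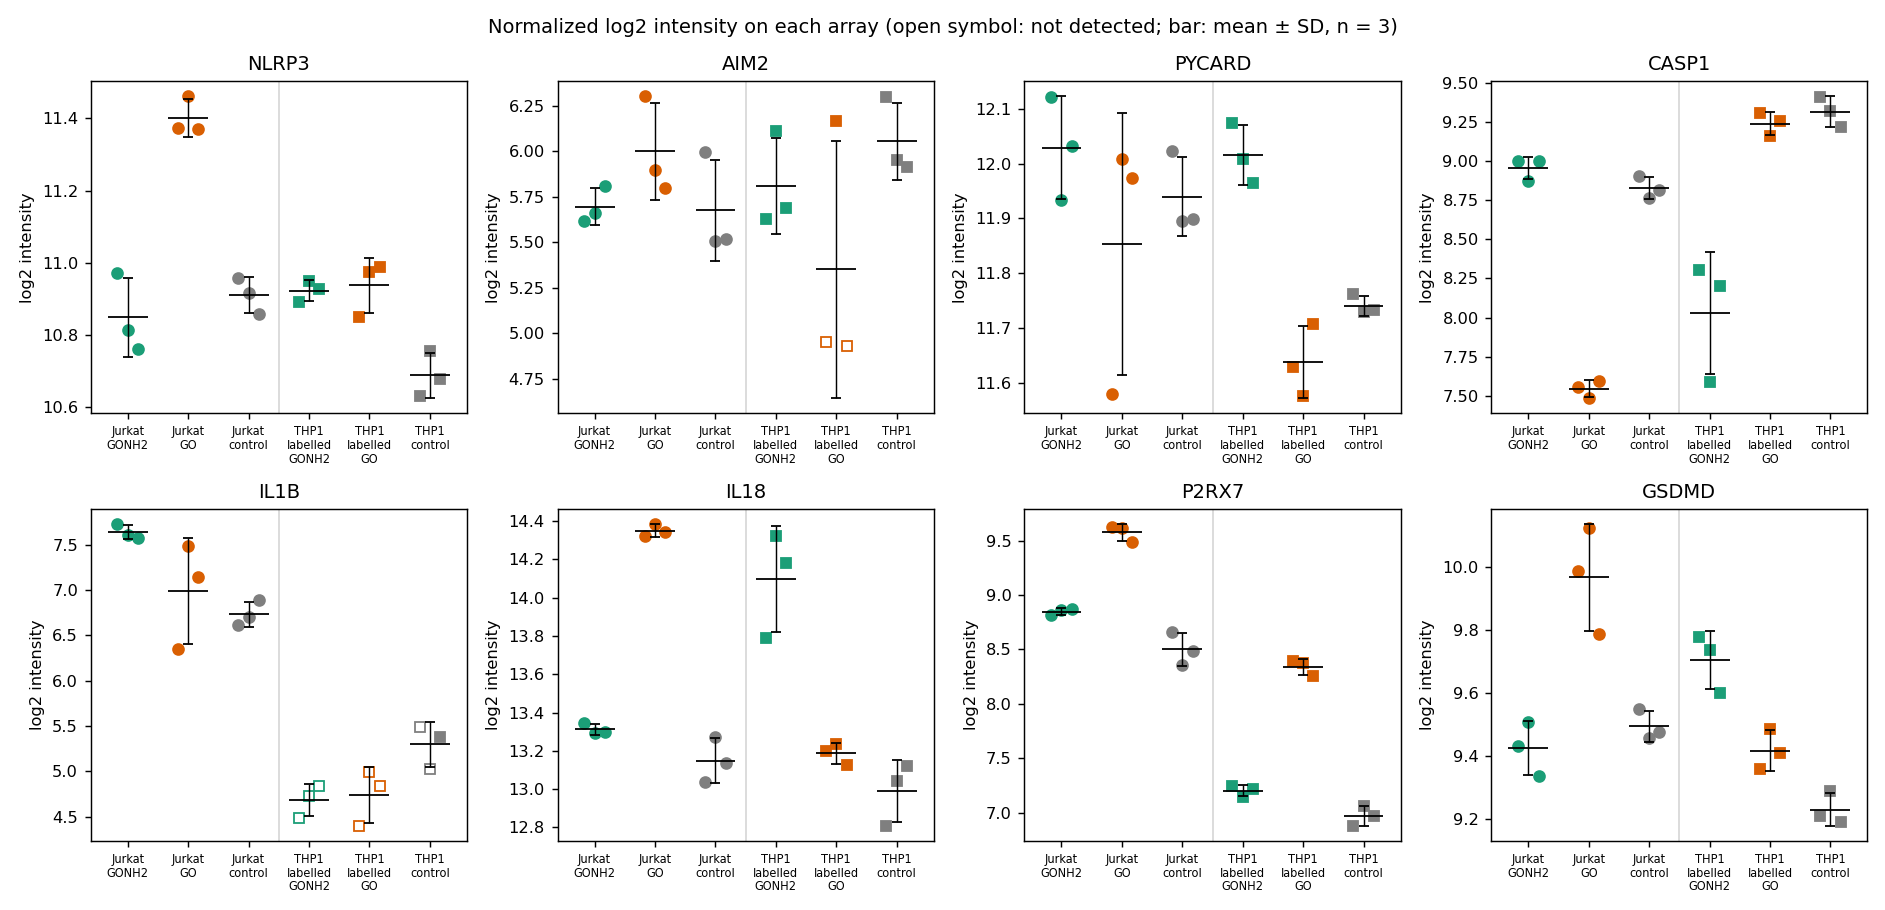
Log2 intensity of the 8 tested members on each array (points), by group, with the mean and SD of 3 arrays (bars); circles are arrays labelled Jurkat, squares THP1, and open symbols mark arrays on which the probe was not detected. CASP1 lies lowest and IL18 highest on Jurkat GO arrays and THP1 arrays labelled GONH2, while P2RX7 is above its control on the GO-labelled arrays of both lines.

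NLRP3, the sensor that P2X7 activity feeds into, rose slightly with GO on arrays labelled Jurkat. Its brightest probe, ILMN_1712026, gave 11.37, 11.46 and 11.37 on Jurkat GO arrays, against 10.96, 10.92 and 10.86 on Jurkat controls. All 3 treated arrays lay above all 3 controls, a difference of 0.49 (SE 0.09, adjusted p = 0.00337, limma). Jurkat GONH2 arrays gave 10.97, 10.81 and 10.76 and overlapped with the controls (-0.06, SE 0.09). On THP1, arrays labelled GONH2 gave 10.89, 10.95 and 10.93 and arrays labelled GO gave 10.85, 10.97 and 10.99, against 10.63, 10.76 and 10.68 on controls. Both treated groups lay above the control range, with mean differences of 0.23 (SE 0.12) and 0.25 (SE 0.10), and neither was counted as changed (adjusted p = 0.144 and 0.115, limma).

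The probes of NLRP3 did not move alike. ILMN_2310896 differed by 0.48 (SE 0.09) with GO on Jurkat arrays, with an adjusted p = 0.00429 (limma) and an unadjusted value just short of the threshold of 0.001. The dimmer ILMN_1696933 differed there by 0.12 (SE 0.09). On THP1 arrays labelled GO it was the dimmer probe that differed most, with 8.51, 8.32 and 8.46 against 7.51, 7.78 and 7.95 on controls (0.68, SE 0.14, adjusted p = 0.0129, limma), again just short of it. NLRP3 was no longer counted as changed in Jurkat GO cells when any 1 of the 6 arrays was left out, under median scaling (0.28) or with the replicate number as a block.

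AIM2 was near the detection limit and was not counted as changed by any treatment. Its log2 intensity was 5.70 ± 0.10 on Jurkat GONH2 arrays and 6.00 ± 0.27 on Jurkat GO arrays, against 5.68 ± 0.28 on Jurkat controls. On THP1 arrays it was 5.81 ± 0.27 under the label GONH2 and 5.35 ± 0.71 under the label GO, against 6.05 ± 0.21 on controls. The wide spread under the label GO came from 1 array at 6.17, the only one of the 3 on which the probe was detected, beside 4.95 and 4.93. Without that array (THP1 GO replicate 2) the difference from controls was -1.11 and was counted as changed. With all 3 it was -0.70 (SE 0.32, adjusted p = 0.152, limma).

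PYCARD, the adaptor through which these sensors reach caspase-1, was not counted as changed by any treatment. Its brighter probe gave 12.03 ± 0.09 on Jurkat GONH2 arrays and 11.85 ± 0.24 on Jurkat GO arrays, against 11.94 ± 0.07 on Jurkat controls. Jurkat GO replicate 1, at 11.58, lay below every other Jurkat array, while its companions at 12.01 and 11.97 fell within the control range of 11.90 to 12.02. THP1 arrays labelled GONH2 gave 12.07, 12.01 and 11.96, all above the controls at 11.76, 11.73 and 11.73 (0.28, SE 0.12, adjusted p = 0.0908, limma). THP1 arrays labelled GO gave 11.63, 11.58 and 11.71, all below the same controls (-0.10, SE 0.10, adjusted p = 0.481, limma). On the arrays labelled GONH2 the second probe also lay above the controls, with a difference of 0.45 (SE 0.14, adjusted p = 0.0309), at an unadjusted p of 0.0113 that missed the threshold (limma). On Jurkat arrays the 95% interval of the brighter probe was -0.13 to 0.31 for GONH2 and -0.40 to 0.23 for GO.

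CASP1, the protease at the centre of the complex, fell below its control level in one treated group of each line. On Jurkat GO arrays it stood at 7.56, 7.49 and 7.60, against 8.91, 8.76 and 8.82 on Jurkat controls. The groups lay more than 1 unit apart, a difference of -1.28 (SE 0.10), or 2.43-fold lower (adjusted p = 4.6e-05, limma). Jurkat GONH2 arrays, at 9.00, 8.87 and 9.00, overlapped with the same controls (0.13, SE 0.09). On THP1 arrays labelled GONH2, CASP1 stood at 8.30, 7.59 and 8.20, against 9.41, 9.32 and 9.21 on controls. Again no treated array reached the controls, and the difference was -1.28 (SE 0.19), 2.44-fold lower (adjusted p = 0.000976, limma). THP1 arrays labelled GO gave 9.30, 9.16 and 9.25 and overlapped with the controls (-0.08, SE 0.11). The second detected probe gave -1.31 (SE 0.09) and -1.32 (SE 0.16) for the same comparisons, and both falls were counted as changed whichever array was left out.

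CASP4, the human caspase that binds bacterial lipopolysaccharide directly and also cleaves gasdermin D, followed the same course on its brightest probe. Its gene lies on chromosome 11 at 104942866 to 104968574, close to CASP1 at 105025443 to 105036686 (GRCh38.p14). Of its 3 probes 2 were tested. The brightest had 8.53, 8.48 and 8.40 on Jurkat GO arrays, against 9.62, 9.51 and 9.54 on controls, a difference of -1.09 (SE 0.09, adjusted p = 8.73e-05, limma). In THP1 cells labelled GONH2 it had 8.48, 7.84 and 8.34, against 9.85, 9.69 and 9.38 on controls (-1.42, SE 0.19, adjusted p = 0.0007, limma). In both lines all treated arrays lay below all controls on this probe, and the lowest THP1 array was the same one for both genes (replicate 2). The other tested probe of CASP4 was near background, and its treated and control arrays overlapped in both comparisons. The 3 neighbours CASP5, CARD16 and CARD18, a caspase and a pair of caspase-1 inhibitors, were detected on at most 2 of 18 arrays and could not be tested. The other 6 tested members of the list of caspases and their decoys were not counted as changed in either comparison. This does not show that they stayed level: with Jurkat GO, SERPINB1 differed by -0.68 and CFLAR by 0.48.

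**Figure D3:**
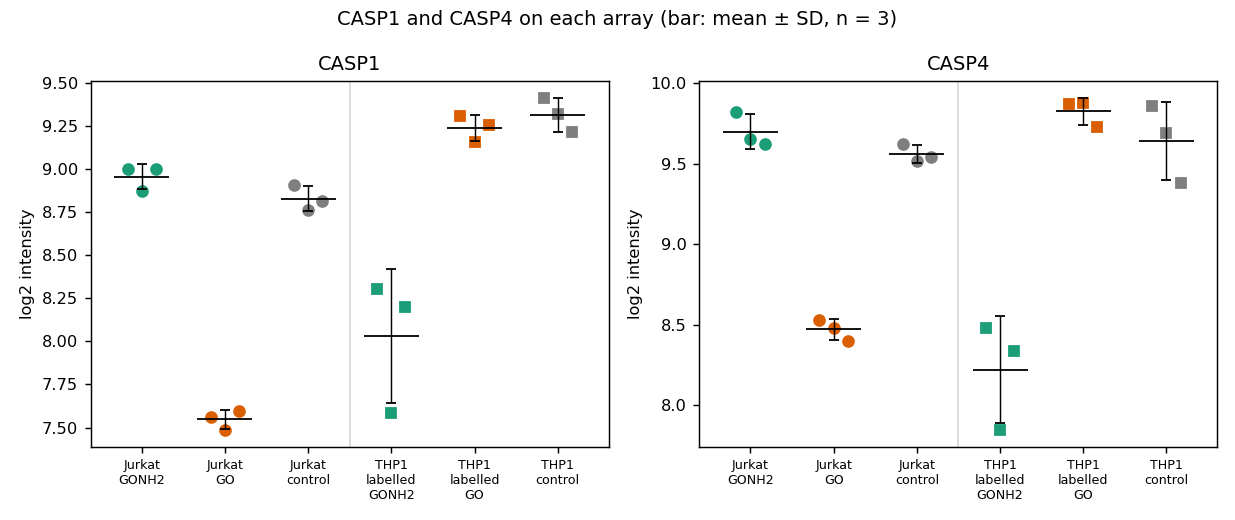
Log2 intensity of CASP1 (left) and CASP4 (right) on each array (points) by group, with the mean and SD of 3 arrays (bars). Jurkat GO arrays and THP1 arrays labelled GONH2 lie below every other group for both genes, each shown by its brightest probe.

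IL18, the cytokine gene whose product caspase-1 matures, moved the opposite way in the same groups. It had 14.32, 14.39 and 14.34 on Jurkat GO arrays, against 13.04, 13.27 and 13.14 on Jurkat controls. The 3 treated arrays lay close together and about 1 unit above the highest control, and the difference was 1.20 (SE 0.10), 2.30-fold higher (adjusted p = 7.7e-05, limma). Jurkat GONH2 arrays had 13.34, 13.29 and 13.30, just above the control range (0.16, SE 0.09, adjusted p = 0.392, limma). On THP1 arrays labelled GONH2, IL18 had 13.79, 14.33 and 14.18, against 12.81, 13.04 and 13.12 on controls, with replicate 1 the lowest of the treated arrays. That difference was 1.11 (SE 0.17), 2.16-fold higher (adjusted p = 0.00107, limma). THP1 arrays labelled GO had 13.20, 13.24 and 13.13 (0.20, SE 0.12, adjusted p = 0.26, limma). Both rises were counted as changed whichever array was left out.

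IL1B, whose transcript is induced by the first signal, rose with GONH2 on arrays labelled Jurkat. It had 7.73, 7.61 and 7.58 on Jurkat GONH2 arrays, against 6.61, 6.70 and 6.89 on Jurkat controls. All treated arrays lay above all controls, a difference of 0.91 (SE 0.10), 1.87-fold higher (adjusted p = 0.0284, limma). Jurkat GO arrays spread over 6.35, 7.48 and 7.14 and overlapped with the controls (0.26, SE 0.26). The call for GONH2 was lost when any 1 of the 6 arrays was left out, and also without the detection filter, in one fit of all 18 arrays and with the replicate number as a block, the difference staying at 0.91 in the last 3 settings.

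On THP1 arrays the IL1B values were at background. They were 4.49, 4.73 and 4.83 under the label GONH2 and 4.40, 4.99 and 4.84 under the label GO, none of them detected. The THP1 controls had 5.49, 5.02 and 5.38, of which 1 was detected. The fitted differences, -0.61 (SE 0.16, adjusted p = 0.015, limma) and -0.56 (SE 0.19, adjusted p = 0.0708), missed the threshold on unadjusted p (0.00442 and 0.0179) and lie between signals mostly at background, so that no fold change is given.

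P2RX7, the ATP-gated channel, rose under the label GO in both lines. It had 9.63, 9.62 and 9.48 on Jurkat GO arrays, against 8.66, 8.35 and 8.49 on Jurkat controls. The treated arrays lay well above the controls, with a mean difference of 1.08 (SE 0.11), 2.11-fold higher (adjusted p = 0.000214, limma). On THP1 arrays labelled GO it had 8.39, 8.37 and 8.25, against 6.88, 7.06 and 6.97 on controls. This was the largest difference of any member between a treatment and its control, 1.37 (SE 0.10), 2.58-fold higher (adjusted p = 0.000663, limma). Jurkat GONH2 arrays, at 8.81, 8.86 and 8.87, lay above the control range, with a mean difference of 0.35 (SE 0.10, adjusted p = 0.143, limma). THP1 cells labelled GONH2, at 7.25, 7.15 and 7.22, did so with a mean difference of 0.23 (SE 0.12, adjusted p = 0.162, limma). Neither was counted as changed, and their 95% intervals reached 0.59 and 0.51. The 2 calls under the label GO held whichever array was left out.

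In the order of its levels, P2RX7 was highest on Jurkat GO arrays (9.58 ± 0.08), then Jurkat GONH2 (8.85 ± 0.03), Jurkat control (8.50 ± 0.15), THP1 labelled GO (8.34 ± 0.08), THP1 labelled GONH2 (7.20 ± 0.05) and THP1 control (6.97 ± 0.09). Jurkat controls and THP1 arrays labelled GO overlapped, so that these THP1 arrays reached the range of the Jurkat controls. The neighbours Jurkat GONH2 and Jurkat control, and THP1 labelled GONH2 and THP1 control, were not counted as different.

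GSDMD, the pore-forming target of caspase-1, differed from controls by about the same amount in the groups in which CASP1 fell. It had 9.99, 10.12 and 9.79 on Jurkat GO arrays, against 9.55, 9.46 and 9.48 on Jurkat controls (0.47, SE 0.11, adjusted p = 0.0106, limma). In THP1 cells labelled GONH2 it had 9.78, 9.74 and 9.60, against 9.21, 9.29 and 9.19 on controls (0.47, SE 0.12, adjusted p = 0.013, limma). In both lines the treated arrays lay above all controls. Neither was counted as changed, because the unadjusted p of 0.00354 and 0.00368 missed 0.001, and each was called in 6 of 12 alternative settings: the authors' values, no background correction, offset 50, 1 fit of 18 arrays, limma-trend and the adjusted p alone. Jurkat GONH2 (9.42 ± 0.09) and THP1 labelled GO (9.42 ± 0.06) differed from their controls by -0.07 (SE 0.09) and 0.19 (SE 0.10).

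**Figure D4:**
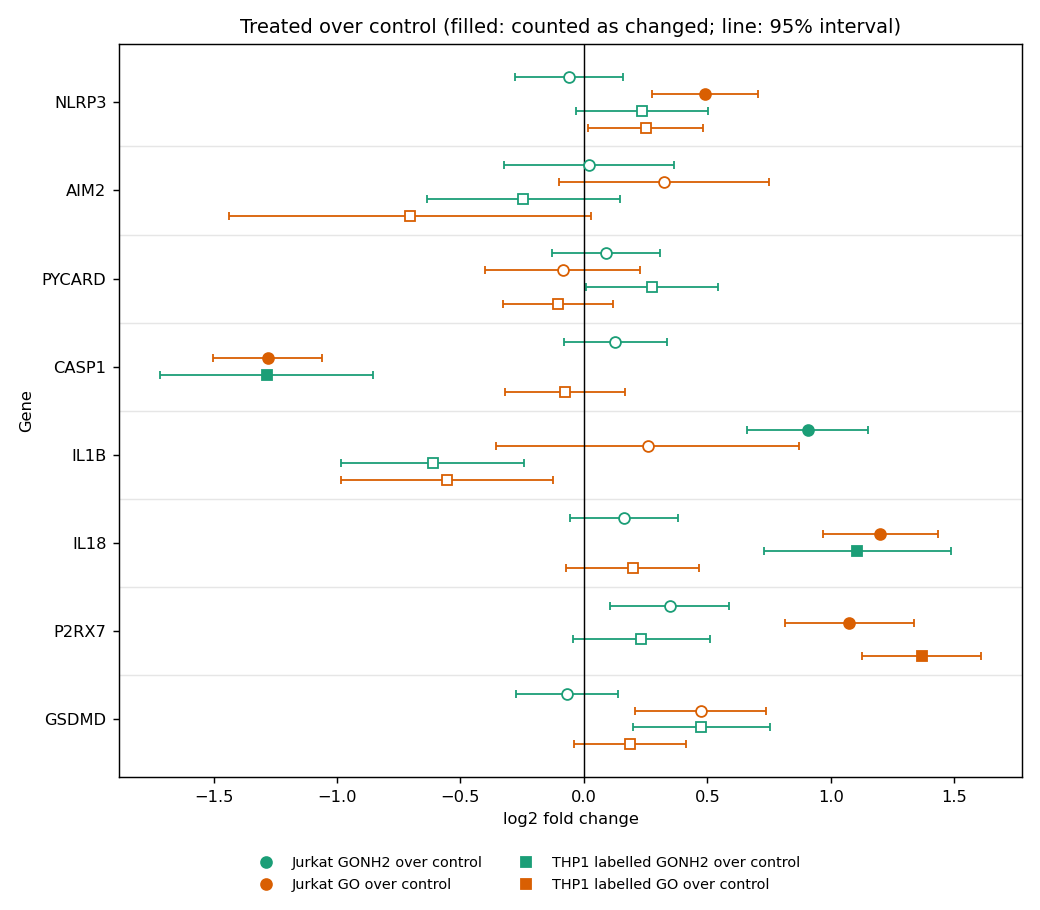
Log2 fold change of the treated arrays over the controls of the same line for the 8 tested members (rows), with 95% intervals (lines); filled symbols are counted as changed. CASP1 and IL18 stand apart from 0 for Jurkat GO and THP1 labelled GONH2, P2RX7 for both GO labels, and IL1B for Jurkat GONH2.

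Myeloid markers moved in both directions in the same groups. Of 23 tested, 8 rose on Jurkat GO arrays, among them ELANE, AZU1, PRTN3 and CSF2RA, and 5 fell (LYZ, FCGR1A, FCER1G, TYROBP and MNDA). In THP1 cells 4 rose and 5 fell under the label GONH2, and 1 rose and 9 fell under the label GO. With GONH2 on Jurkat arrays 1 rose and 2 fell. Over all tested genes, 27.1% were called for Jurkat GO and 0.764% for Jurkat GONH2. For THP1 the shares were 21.9% under the label GONH2 and 9.09% under the label GO. The share of myeloid markers called was above that of all genes in each comparison. The summed level (linear intensities of 25 genes), to which bright genes such as ELANE contribute most, was 52100 to 54050 on Jurkat GONH2 arrays and 90720 to 97910 on Jurkat GO arrays, against 55950 to 58660 on Jurkat controls. For THP1 it was 120400 to 128300 under the label GONH2 and 68490 to 75160 under the label GO, against 94480 to 100900 on controls. Of 12 tested T-cell markers, CD4 rose and CD3D fell on Jurkat GO arrays, PTCRA rose on THP1 arrays labelled GO, and 0 were called with GONH2 in either line by limma. CD3D averaged 5.41 ± 0.48 and CD4 7.72 on Jurkat GO arrays, against 7.86 ± 0.27 and 6.95 on Jurkat controls (SD, n = 3 each). The summed level of 22 T-cell markers was 1257 to 1290 on Jurkat GONH2 arrays and 1340 to 1404 on Jurkat GO arrays, against 1358 to 1495 on Jurkat controls. On THP1 arrays it was 748.7 to 776.4 under the label GONH2 and 734.3 to 766.8 under the label GO, against 668.7 to 704.9 on controls. Of the 22 markers, 15 were detected on no array of each treated THP1 group and 17 on no THP1 control. Much of these THP1 sums is therefore background signal, and their differences are not read as T-cell marker expression. The part of these shifts in the results was not tested.

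Set directly against each other, GONH2 and GO differed in 4 members on arrays labelled Jurkat, where 25.8% of all genes differed. The groups did not overlap for 6 members (59.4% of genes). With GONH2, CASP1 was higher by 1.41 (SE 0.10, adjusted p = 3.2e-05), and IL18 (-1.04, SE 0.10, adjusted p = 0.000103), P2RX7 (-0.73, SE 0.10, adjusted p = 0.000731) and NLRP3 (-0.55, SE 0.11, adjusted p = 0.00387, limma) were lower. The call for NLRP3 was lost when any 1 array was left out. On THP1 arrays 3 members differed between the labels GONH2 and GO, where 30% of genes differed, and 5 did not overlap (63.3% of genes). Under the label GONH2, CASP1 (-1.21, SE 0.19, adjusted p = 0.000906) and P2RX7 (-1.14, SE 0.11, adjusted p = 0.00013) were lower and IL18 (0.91, SE 0.15, adjusted p = 0.00134, limma) was higher. The call for IL18 held when THP1 GONH2 replicate 1, the lowest of its group, was left out, and was lost without each of the other 5 arrays and under median scaling (0.62). For CASP1 and IL18 the difference between the labels thus had opposite signs in the lines, and for P2RX7 the same sign.

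Before treatment the lines differed in 2 members, where 13.2% of genes differed, and did not overlap in 6 (49.2% of genes). P2RX7 was 2.88-fold higher on Jurkat than on THP1 controls (1.53, SE 0.11, adjusted p = 0.000128, limma), and IL1B was higher by 1.43 (SE 0.15, adjusted p = 0.000499), with the probe detected on 1 of the 3 THP1 controls and a range of 0.57 to 1.60 over the alternative settings. CASP1 was lower by 0.49 (SE 0.10) on Jurkat controls, with 8.91, 8.76 and 8.82 against 9.41, 9.32 and 9.21, at an adjusted p of 0.0109 and an unadjusted p of 0.00138 (limma).

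Whether the lines responded differently was tested by an interaction term over 12 arrays, once with the monocyte groups as labelled and once with the labels crossed. As labelled, the responses to GO differed in 2 members, where 26.5% of genes differed: the response of CASP1 on Jurkat arrays minus that on THP1 arrays was -1.20 (SE 0.13) and that of IL18 was 1.00 (SE 0.15). The responses to GONH2 differed in 3 members, where 20.8% of genes differed, namely CASP1 (1.41, SE 0.22), IL1B (1.52, SE 0.20) and IL18 (-0.94, SE 0.20). The call for IL18 was lost under median scaling for GO (0.55), and in 6 of the 12 fits that left out 1 array for GONH2. P2RX7 did not pass in either test, and its difference for GO was -0.29, with a 95% interval from -0.61 to 0.03.

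With the labels crossed, Jurkat GO set against THP1 labelled GONH2 differed in 1 member, P2RX7 (0.84, SE 0.15, adjusted p = 0.0303, limma), where 0.62% of genes differed. The difference for CASP1 was 0.01 (95% interval -0.48 to 0.49), for IL18 0.09 (-0.34 to 0.53) and for GSDMD -0.002 (-0.34 to 0.33). The call for P2RX7 held in 3 of the 12 fits that left out 1 array, and was lost under median scaling (0.75) and with the replicate number as a block (adjusted p = 0.115, limma). Jurkat GONH2 set against THP1 labelled GO differed in 2 members, where 6.22% of genes differed: P2RX7 (-1.02, SE 0.14, adjusted p = 0.00125) and IL1B (1.46, SE 0.23, adjusted p = 0.00262, limma). The IL1B differences rest on THP1 signals mostly at background, and the last one was not called under median scaling (0.72). CASP1 and IL18 were thus called different in the pairings as labelled and not in the crossed ones, and P2RX7 in the crossed ones and not as labelled.

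**Figure D5:**
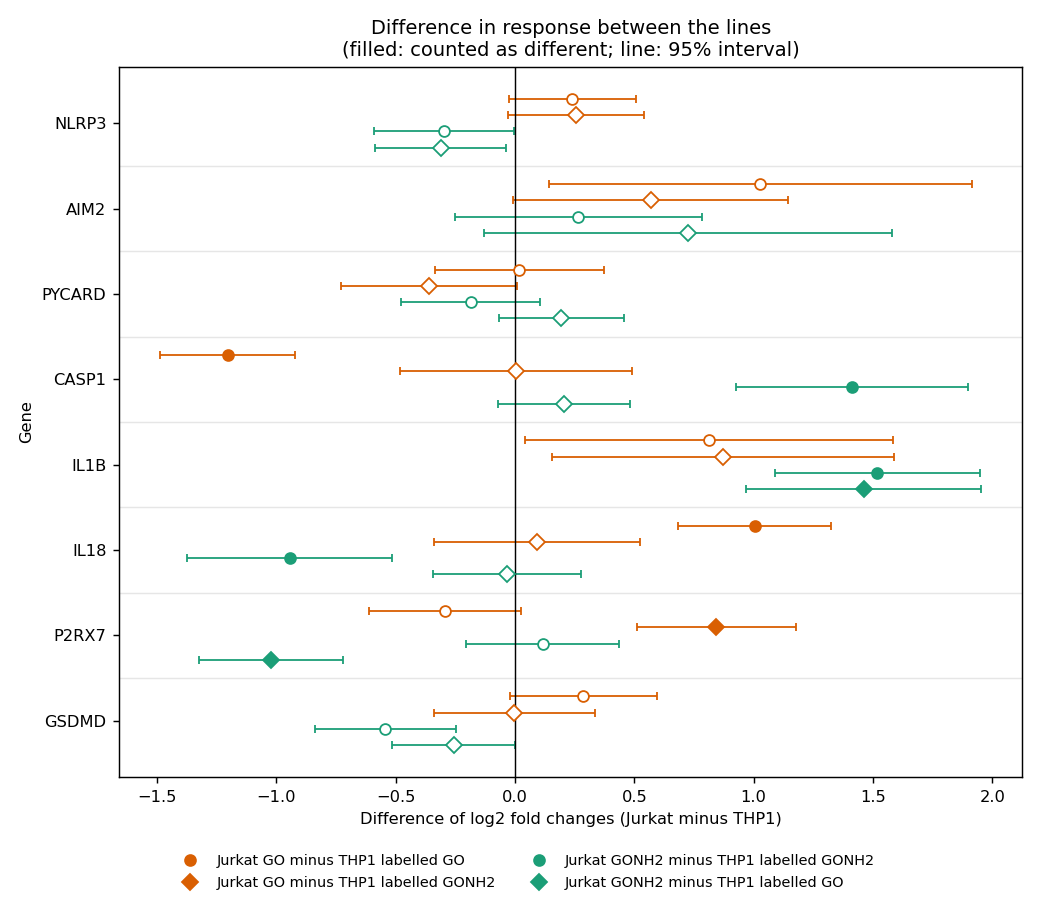
Difference between the log2 fold changes of the lines (Jurkat minus THP1) for the 8 tested members (rows), with 95% intervals (lines); circles pair the monocyte groups as labelled, diamonds cross the labels, and filled symbols are counted as different. CASP1 and IL18 differ only in the circles, and P2RX7 only in the diamonds.

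The bases before the start of P2RX7, IL1B and PYCARD are shown because these genes gave a rise in both lines, a difference between the lines and no called change. They are 250 bases from RefSeq (GRCh38.p14), at chr12:121132626-121132875 on the plus strand for P2RX7, and at chr2:112836780-112837029 and chr16:31202761-31203010 on the minus strand for IL1B and PYCARD. Of the 10 members, 6 had an entry, and CASP1, IL18, NLRP1 and GSDMD are named only. Capitals mark matches, on either strand, to GGGCGG (the GC box of Sp1), TTNNGNAA (C/EBP) and GAGGAA (the ETS core of factors such as PU.1), which occur in 42.6%, 33.2% and 23.6% of 35114 such windows.
P2RX7: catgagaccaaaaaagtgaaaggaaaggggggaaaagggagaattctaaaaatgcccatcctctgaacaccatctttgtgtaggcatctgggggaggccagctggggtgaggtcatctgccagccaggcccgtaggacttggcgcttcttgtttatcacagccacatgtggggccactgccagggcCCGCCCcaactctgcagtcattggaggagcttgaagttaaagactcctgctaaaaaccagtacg
IL1B: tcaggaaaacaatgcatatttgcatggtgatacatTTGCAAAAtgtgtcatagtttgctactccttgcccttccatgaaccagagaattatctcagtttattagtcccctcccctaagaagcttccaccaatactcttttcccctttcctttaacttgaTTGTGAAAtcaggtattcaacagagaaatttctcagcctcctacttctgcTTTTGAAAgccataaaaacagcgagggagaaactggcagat
PYCARD: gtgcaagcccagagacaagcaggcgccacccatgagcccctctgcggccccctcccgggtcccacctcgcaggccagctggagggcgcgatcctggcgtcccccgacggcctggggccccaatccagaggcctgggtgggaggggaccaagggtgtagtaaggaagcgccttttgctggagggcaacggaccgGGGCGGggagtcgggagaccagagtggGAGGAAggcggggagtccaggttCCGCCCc
P2RX7 held 1 GC box, starting at -64 on the minus strand, where -1 is the last base before the gene. IL1B held 3 C/EBP matches, at -215 on the minus strand and at -91 and -41 on the plus strand, and no GC box. PYCARD held 2 GC boxes, at -57 and -7, and 1 ETS core at -30, with 71.2% of its bases G or C against 53.2% in P2RX7 and a median of 58% over all windows. The letters TATAAA and TGANTCA (AP-1) and the motifs of NF-κB and of the interferon-stimulated response element, held by 10.7%, 6.57%, 1.73% and 3.02% of windows, had no match in these 3, and no matches overlapped. A match is a description of letters and not a binding site.

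Other genes of the pathway were followed in 6 lists, from which the called genes with the largest differences are named. Their counts are to be read against the share of all tested genes called in the same comparison, which was 0.764% for Jurkat GONH2, 27.1% for Jurkat GO, 21.9% for THP1 labelled GONH2 and 9.09% for THP1 labelled GO. Of 14 tested purinergic receptors and ATP-handling genes, 4 rose and 0 fell with GO on Jurkat arrays, a share close to the 27.1% of all genes. Among them were PANX2, a pannexin channel (at least 1.70-fold, not detected on the controls), the potassium channel KCNK6 (0.74, SE 0.11) and the ATP receptor P2RY11 (0.65, SE 0.10). In THP1 cells labelled GO, ADA, which deaminates adenosine (1.06, SE 0.11), and P2RX4, a relative of P2RX7 (0.69, SE 0.10), rose. Under the label GONH2, P2RY11 (0.82, SE 0.14) and the nucleotide receptor P2RY2 (0.65, SE 0.13) rose. The median of the list with Jurkat GO was 0.46, against 0.11 over all genes.

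Of 23 tested regulators of NLRP3, 6 rose and 0 fell with GO on Jurkat arrays (27.1% of all genes called), and 3 rose and 1 fell on THP1 arrays labelled GONH2 (21.9%). Neither of these 2 shares was above that of all genes. On THP1 arrays labelled GO, 3 rose and 4 fell, a share above the 9.09% of all genes called there. CTSB, the lysosomal protease cathepsin B, rose in both, to 11.58 on Jurkat GO arrays against 10.17 on controls (1.41, SE 0.10, adjusted p = 3.41e-05) and to 10.47 on THP1 arrays labelled GONH2 against 9.46 on controls (1.02, SE 0.15, adjusted p = 0.00108, limma). TNFAIP3, a brake on NF-κB signaling, rose with GO on Jurkat arrays (1.15, SE 0.18) and on THP1 arrays labelled GO (1.33, SE 0.20), the label in which P2RX7 rose in both lines. STING1, a sensor of cyclic dinucleotides, rose on Jurkat GO arrays (0.83, SE 0.10), and the adaptor PSTPIP1 on THP1 arrays labelled GONH2 (0.94, SE 0.13). TLR4, the lipopolysaccharide receptor, fell on THP1 arrays under both labels, by 1.02 (SE 0.15) under GONH2, where it was detected on 1 of 3 arrays, and at least 1.9-fold under GO, where it was detected on 0. DPP9, an inhibitor of NLRP1 and CARD8, fell under the label GO (-0.94, SE 0.13), one of 4 falls beside 3 rises there.

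Of 7 tested interleukin-1 family members and receptors, 2 rose on Jurkat GO arrays, where 27.1% of all genes were called: IL1RAP, the shared receptor chain (1.05, SE 0.17), and the kinase IRAK1 (0.71, SE 0.13). IRAK1 also rose on THP1 arrays labelled GONH2 (0.60, SE 0.12) and fell on those labelled GO (-0.88, SE 0.12), together with the adaptor MYD88 (-0.65, SE 0.10). Among 10 tested further sensors and adaptors, NOD2, a sensor of bacterial muramyl dipeptide, rose (0.71, SE 0.14) and its kinase RIPK2 fell (-0.56, SE 0.10) on Jurkat GO arrays, and NLRX1, a mitochondrial relative, rose on THP1 arrays labelled GONH2 (0.89, SE 0.17). Of 12 tested gasdermins and genes of membrane rupture, GSDME (0.99, SE 0.16) and GSDMA (0.97, SE 0.10) rose and MLKL, the executor of necroptosis, fell (-0.81, SE 0.10) on THP1 arrays labelled GO. CHMP4A, a subunit of the membrane repair machinery, fell on Jurkat GO arrays (-0.80, SE 0.10). With GONH2 on Jurkat arrays, 0 genes of the 6 lists were called by limma, of 72 tested, and 15 had an unadjusted p under 0.05, where 0.764% of all genes were called.

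The genes whose levels over the 18 arrays were most like those of a called member are given as a description, since the arrays share the same groups. CASP1 was closest to PLGRKT, a plasminogen receptor (Pearson r = 0.989), ZMYM6 and ZFAS1, a small nucleolar RNA host. IL18 was closest to ZNF486, the transcription factor ZHX2 (both 0.989) and the adaptor DAPP1. P2RX7 was closest to ADM, the adrenomedullin gene (0.972), the desmosomal cadherin DSG2 and STMN3, which had log2 fold changes of 0.85, 0.42 and 0.27 on Jurkat GO arrays and of 1.85, 0.88 and 0.91 on THP1 arrays labelled GO. NLRP3 was closest to AHNAK2 (0.944), TOM1 and S100A10, and IL1B to PGAM1 (0.949), ANXA4 and CNR1.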

How the data were processed

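RNA from Jurkat and THP1 cells, untreated or given GO or GONH2, was hybridized by the authors to 18 Illumina HumanHT-12 v4 arrays, 3 in each of 6 groups. The deposited table holds probe intensities before normalization between arrays and, for each probe and array, the detection p-value against negative controls, both from GenomeStudio (version V2011.1, with version V1.9.0 of its expression module) per the labels; whether background was subtracted is not given in the sources used here. The authors also deposited intensities they had normalized, with a median of 128.4 on every array, which served as an alternative. Array medians of the intensities before normalization were 102.6 to 150.2, and the number of arrays limits the precision. The labels give no slide, chip or scan date. An effect of slide or scan could therefore not be tested, nor told apart from an effect of treatment.

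Intensities were background-corrected with limma's neqc (limma 3.58.1, R 4.3.3; offset 16, background estimated from the detection p-values), quantile normalized and put on the log2 scale. Tests covered the 19455 of 47217 probes with a detection p under 0.01 on 3 arrays or more. Of all probes, 30106 had 1 gene symbol in the platform annotation, 8 several and 17103 none, and 30067 were matched by gene ID to RefSeq. A gene was represented by its tested probe with the highest mean over 18 arrays. Each pair of groups was fitted with lmFit and eBayes on its 6 arrays, and differences between the lines on 12 arrays. A gene counted as changed at p under 0.001 and a Benjamini-Hochberg adjusted p under 0.05 over all tested probes. A fold is given as a bound where a probe was not detected on any array of 1 group, against the lowest detected signal. Scripts were tested on simulated data.

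Members and lists were chosen with earlier results of these data known. Named were all members, the called genes with the largest change of each pathway list (at most 3 per list and comparison), and the 3 genes with the highest Pearson r with each called member. Alternatives were the authors' values, no background correction, offset 50, median scaling, separate normalization of the lines, other detection filters, 1 fit of 18 arrays, a replicate block, a random variance test, limma-trend, the adjusted p alone, other probes and leaving out each array.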

Additional observations from a re-analysis of the deposited data

Results flagged for a closer look

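The response to a treatment differed between the lines for 3 members when the monocyte groups were taken as labelled. For GO, the response on arrays labelled Jurkat minus that on THP1 arrays was -1.20 for CASP1 (SE 0.13, adjusted p = 1.81e-05) and 1.00 for IL18 (SE 0.15, adjusted p = 0.00017, limma's interaction test). For GONH2 it was 1.41 for CASP1 (SE 0.22, adjusted p = 0.000569), 1.52 for IL1B (SE 0.20, adjusted p = 0.000211) and -0.94 for IL18 (SE 0.20, adjusted p = 0.00272, limma). With the THP1 labels crossed, the differences for CASP1 were 0.01 for Jurkat GO and 0.20 for Jurkat GONH2, those for IL18 were 0.09 and -0.03, and none of these 4 was called. The IL1B value rests on THP1 arrays of which 1 of 6 was detected.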

How the results depend on the processing

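No called value changed sign under any alternative run. Of the values compared, 1693 were classed as the same, 54 as weaker (a call lost), 37 as stronger (a call gained) and 3 as moved. The call of 1 member for Jurkat GONH2 against control (IL1B) became 0 without the detection filter, in 1 fit of all 18 arrays and with the replicate block. For THP1 labelled GONH2 against control the count of 2 became 4 with the adjusted p alone, IL1B and GSDMD being added. Under median scaling, the members whose response differed became 1 for Jurkat GO against THP1 labelled GO, 0 for Jurkat GO against THP1 labelled GONH2 and 1 for Jurkat GONH2 against THP1 labelled GO. Leaving out each array in turn gave counts of 3 to 3 for Jurkat GO, 0 to 0 for Jurkat GONH2, 1 to 2 for THP1 labelled GO (2 without replicate 2 of that group, when AIM2 was called) and 2 to 2 for THP1 labelled GONH2. It gave 3 to 3 for Jurkat GONH2 against GO, 2 to 3 for THP1 labelled GONH2 against labelled GO, 2 to 2 between controls, and for the differences in response 2 to 3 (GO in both), 0 to 1 (Jurkat GO, THP1 labelled GONH2), 2 to 3 (GONH2 in both) and 2 to 3 (Jurkat GONH2, THP1 labelled GO). The causes were not tested. CASP1 in Jurkat GO cells stayed between -1.31 and -0.95 and IL18 between 0.85 and 1.22 over the other settings, all called.

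Whether the replicate numbers pair the arrays was not settled. Of 21 pairs of the same number, 3 correlated above 0.1 (range -0.066 to 0.158). In 15 of the 21, however, the array correlated best with its own number, so that a weak pairing may exist. The main tests did not use the replicate number. With the replicate block, 3 members were called for Jurkat GO, 0 for Jurkat GONH2, 1 for THP1 labelled GO and 2 for THP1 labelled GONH2, and for the differences in response 2, 0, 3 and 2. Separate normalization of the lines was not run for comparisons between lines. Signal over background limited IL1B on THP1 arrays and AIM2, and gave only bounds for NLRP1 and NLRC4.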
